A study of Mus musculus with 18 samples.

Results

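The mitochondrial ribosomal proteins are the nuclear-encoded proteins of the ribosome that works inside mitochondria. The genes were taken by name, as the RefSeq symbols that begin with Mrpl (large subunit) or Mrps (small subunit) and a number. Of the 78 such genes listed, 71 had reads in all 18 libraries, 25 named for the small and 46 for the large subunit, among 6929 genes that met the same condition. The rule used no measured change, so each gene could be tested in every comparison.

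MIN6 is a mouse insulinoma line, used as a model of the pancreatic beta cell. Cyclopiazonic acid (CPA) blocks the SERCA pump, which loads the endoplasmic reticulum with calcium, and so causes endoplasmic reticulum (ER) stress. The 3 treatments compared were these: control cells given the solvent DMSO for 18 h, CPA1 cells given 200 µM CPA for 1 h, and CPA18 cells given 200 µM CPA for 18 h. Each was measured by mRNA-seq of poly(A) RNA and by Ribo-seq, which sequences the mRNA fragments covered by ribosomes, in 3 independent experiments, and all cells were of the same line and grown in the same medium. The control for CPA1 was thus an 18 h and not a 1 h solvent treatment.

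The mitochondrial ribosome is built from RNAs of the mitochondrial genome and from proteins that are made in the cytosol and imported. It translates the few mRNAs of that genome, which encode core subunits of the respiratory chain and of ATP synthase, and its small subunit decodes the mRNA while its large subunit joins the amino acids. Beta cells depend on mitochondrial ATP to couple glucose to insulin release.

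Libraries held 168129 to 4755030 aligned reads, 520960 or more in mRNA-seq and at most 1083297 in Ribo-seq, and the 71 genes took 883 to 33976 of them. Lars2, which encodes the mitochondrial leucyl-tRNA synthetase, took 4.75 to 54.8% of mRNA-seq reads, with 45.1 to 54.8% in all libraries of experiment 1, while Ins2 took 1.35 to 18.6%. Expression is therefore given as adjusted RPKM, the deposited reads per kilobase of transcript, scaled to sequencing depth, brought to the reads outside Ins1, Ins2 and Lars2. The log2 changes are from edgeR fits on the counts with the total count as library size, and on that scale the median of all genes moved by 0.38 in mRNA-seq and 0.42 in Ribo-seq from control to CPA18. Changes of groups are thus given relative to the median gene. Those of single genes are not, and from control to CPA18 they mostly lie above the change seen in adjusted RPKM. All 8 beta-cell markers examined had reads in all 18 libraries, and on total counts 7 of them, all but Iapp, were lower in CPA18 than in control cells in both assays. On totals without Ins1, Ins2 and Lars2 all 8 were lower in mRNA-seq and 7 in Ribo-seq. Of markers of other cells, the glucagon gene Gcg had reads in all 18 libraries (49.7 to 171 adjusted RPKM in mRNA-seq), Sst in 13, Ppy in 11 and Ghrl in 4. The exocrine genes Ctrb1, Cela1 and Krt19 had reads in 2, 4 and 5 libraries and the stromal gene Col1a1 in 11, while the exocrine gene Prss2 and the leukocyte gene Ptprc had none. Each value describes a whole culture, in which fewer cells of a kind and less RNA per cell cannot be told apart.

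As a group, the mitochondrial ribosomal protein genes took a larger share of the reads after 18 h of CPA, most plainly in Ribo-seq. These shares are not set relative to the median gene. On totals without Ins1, Ins2 and Lars2 the median of all genes also moved up from control to CPA18. It moved by 0.13 log2 units in mRNA-seq and 0.24 in Ribo-seq, and the median member by 0.48 and 0.66. Of the Ribo-seq reads outside Ins1, Ins2 and Lars2, the members took 0.37, 0.383 and 0.376% in the control libraries of experiments 1 to 3, 0.338, 0.343 and 0.386% in CPA1, and 0.576, 0.633 and 0.581% in CPA18. The CPA18 Ribo-seq libraries were all above the other 6. In mRNA-seq the shares were 0.388, 0.653 and 0.597% in control cells, 0.378, 0.535 and 0.594% in CPA1, and 0.54, 0.797 and 0.767% in CPA18. Here the groups overlapped, because experiment 1 lay low in every treatment, but the CPA18 library was the highest of its own experiment in all 3. Both subunits had their highest mean share in CPA18. The small-subunit genes took 0.126 ± 0.00404% of the control Ribo-seq reads and 0.216 ± 0.0159% of those of CPA18 (mean ± SD, n = 3), and the large-subunit genes 0.251 ± 0.00493% and 0.381 ± 0.0161%.

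**Figure D1:**
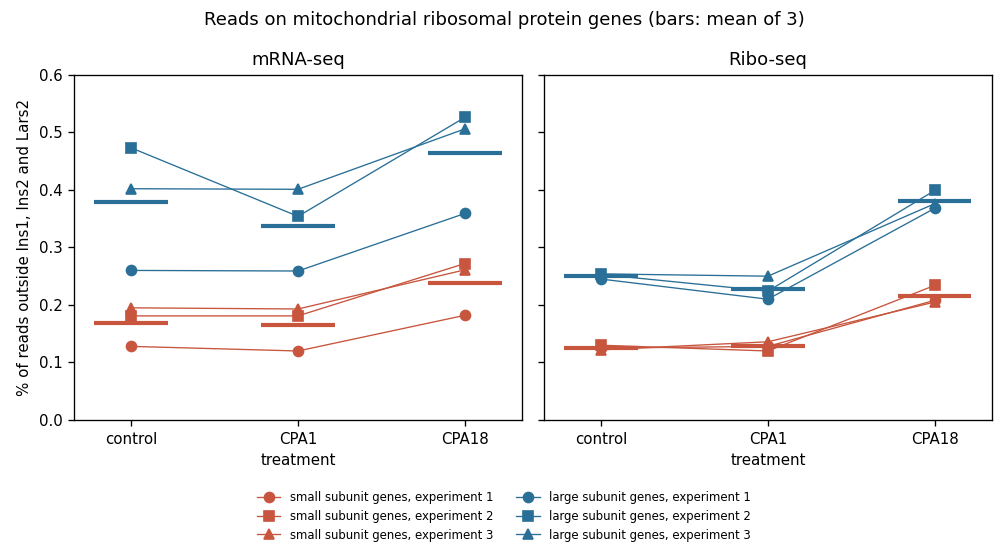
Share of the reads outside Ins1, Ins2 and Lars2 that fell on small-subunit (red) and large-subunit (blue) mitochondrial ribosomal protein genes, in percent, by treatment, with mRNA-seq and Ribo-seq in separate panels. Markers are the 3 experiments and bars their mean, and the shares are not set relative to the median gene. In Ribo-seq the CPA18 libraries (0.576 to 0.633% for both subunits together) lie above all control and CPA1 libraries, while in mRNA-seq the treatments overlap.

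Between control and CPA18 cells, 34 of the 71 genes rose in mRNA-seq and 1, Mrpl46, was lower (edgeR's quasi-likelihood test, adjusted p under 0.05 over all 6929 genes). Among all genes 27.0% were called higher and 7.89% lower. In Ribo-seq 34 rose and none fell, against 25.6% of all genes called higher. The estimated change was above that of the median gene for 57 of the 71 genes in each assay, and the median member stood 0.35 above the median of all genes in mRNA-seq (0.43, 0.41 and 0.20 in experiments 1 to 3) and 0.43 above it in Ribo-seq (0.21, 0.42 and 0.39). When the totals were taken without Ins1, Ins2 and Lars2, 29 genes rose in mRNA-seq and 22 in Ribo-seq, against 21.2 and 17.5% of all genes.

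The number of genes called depended on the setting. The 4 settings were total counts, totals without Ins1, Ins2 and Lars2 and TMM factors, all with edgeR's test, and DESeq2. DESeq2 has its own scaling and its own test, and the effect of its scaling alone was not tested. All 34 genes called higher in each assay had a positive change under all 4. They were picked on total counts, the scale on which the median gene moved up most, so this outcome was likely beforehand. Of all 71 members, 64 in mRNA-seq and 67 in Ribo-seq had a positive change on total counts, and 54 and 57 under all 4 settings. Called higher under all 4 were 12 genes in mRNA-seq, namely Mrpl9, Mrpl17, Mrpl21, Mrpl44, Mrpl57, Mrps14, Mrps18b, Mrps18c, Mrps26, Mrps27, Mrps28 and Mrps30, against 11.1% of all genes. In Ribo-seq they were 8, namely Mrpl20, Mrpl52, Mrps12, Mrps14, Mrps18c, Mrps26, Mrps28 and Mrps34, against 6.86% of all genes. The small-subunit genes Mrps14, Mrps18c, Mrps26 and Mrps28 were thus called higher in both assays under all 4 settings. Without the block for the experiment, 0 of the 71 genes passed in mRNA-seq and 30 in Ribo-seq, and without the control mRNA-seq library of experiment 2, 19 rose in mRNA-seq. The share of all genes called in these settings is not given here, so the counts cannot be set against it.

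**Figure D2:**
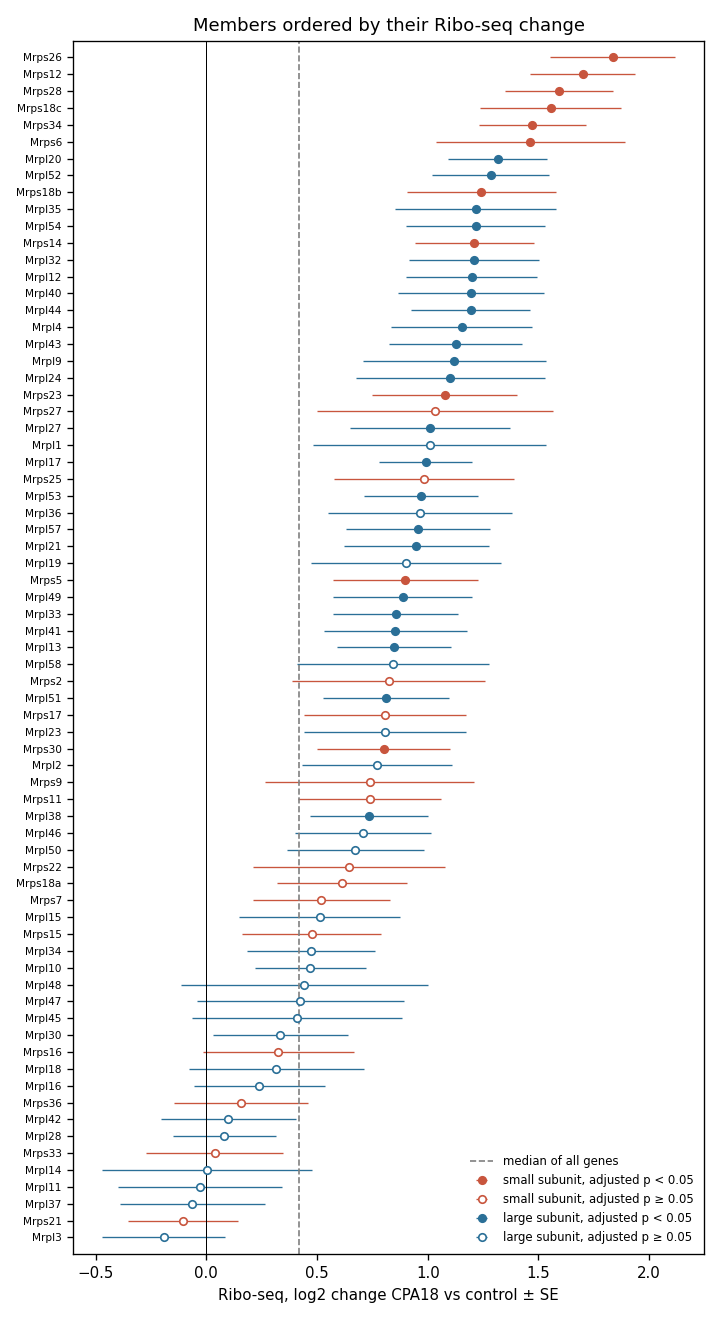
Log2 change in Ribo-seq from control to CPA18 (horizontal axis) of the 71 genes, ordered by that change, with bars of 1 standard error. Filled points passed an adjusted p of 0.05, red marks the small and blue the large subunit, and the dashed line is the median of all genes (0.42). Mrps26 and Mrps12 stand at the top and 57 of the 71 genes lie above the line.

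Mrps26, a small-subunit protein found in animal mitochondria, had the largest Ribo-seq increase. Its Ribo-seq level was 36.8, 38.6 and 51.4 adjusted RPKM in control cells, 48.2, 56.6 and 76.5 in CPA1 and 119, 129 and 155 in CPA18. The 3 CPA18 libraries were above all others, with a log2 change from control of 1.84 ± 0.28 (SE; adjusted p = 7.29e-08). The mRNA-seq level was 80.1, 145 and 147 adjusted RPKM in control cells, 64.4, 131 and 140.0 in CPA1 and 169, 311 and 332 in CPA18. It also rose there, by 1.37 ± 0.28 (adjusted p = 1.74e-05), and again no CPA18 library overlapped the other treatments.

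Mrps12, the counterpart of the bacterial decoding-centre protein S12, followed with a Ribo-seq level of 133, 88.2 and 121 adjusted RPKM in control cells, 97.6, 90.5 and 158 in CPA1 and 254, 392 and 327 in CPA18. Its log2 change of 1.70 ± 0.24 (adjusted p = 3.07e-09) was larger than that in mRNA-seq, 0.97 ± 0.27 (adjusted p = 0.00277), where the levels were 87.4, 218 and 238 in control cells and 201, 372 and 309 in CPA18. The difference between the assays for Mrps12 did not pass the test of ribosome occupancy described further on. The start regions of Mrps26 and Mrps12 are shown because these genes head the Ribo-seq order. They run from 250 bases before to 50 bases after the annotated start in RefSeq on GRCm38.p6, 5′ to 3′ along the gene, at chr2:130563507-130563806 on the plus strand and chr7:28741772-28742071 on the minus strand, and capitals mark CCGGAAG or its reverse complement CTTCCGG, the core recognised by ETS factors.
Mrps26: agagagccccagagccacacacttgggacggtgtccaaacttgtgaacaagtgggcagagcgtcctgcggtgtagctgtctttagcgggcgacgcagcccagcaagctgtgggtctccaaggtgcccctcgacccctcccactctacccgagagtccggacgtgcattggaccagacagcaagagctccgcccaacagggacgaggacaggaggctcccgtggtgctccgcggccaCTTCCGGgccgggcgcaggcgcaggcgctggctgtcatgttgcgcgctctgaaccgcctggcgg
Mrps12: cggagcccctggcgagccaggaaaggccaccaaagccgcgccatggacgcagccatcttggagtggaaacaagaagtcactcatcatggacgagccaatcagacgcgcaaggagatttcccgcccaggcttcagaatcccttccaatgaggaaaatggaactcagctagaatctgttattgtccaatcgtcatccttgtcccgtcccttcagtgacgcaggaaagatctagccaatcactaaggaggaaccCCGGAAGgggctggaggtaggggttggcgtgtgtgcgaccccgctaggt

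Mrps28 and Mrps34, both of the small subunit, were also called higher in Ribo-seq under every scaling and with DESeq2. Mrps28 was at 109, 111 and 106 adjusted RPKM in control cells, 87.3, 80.3 and 125 in CPA1 and 239, 398 and 249 in CPA18, a change of 1.59 ± 0.24 (adjusted p = 5.81e-08). Its mRNA-seq level went from 37.7, 74.5 and 91.0 to 132, 159 and 118 (1.22 ± 0.31, adjusted p = 0.000859). In neither assay did the control and CPA18 libraries of Mrps28 overlap. Mrps34 was at 89.7, 88.1 and 87.9 in control Ribo-seq libraries, 118, 119 and 145 in CPA1 and 186, 298 and 184 in CPA18 (1.47 ± 0.24, adjusted p = 3.68e-07). Its mRNA-seq change of 0.64 ± 0.28 did not pass (adjusted p = 0.0589), with 104, 153 and 185 adjusted RPKM in control cells and 143, 227 and 206 in CPA18. Mrps14, the counterpart of bacterial S14, rose in both assays, from 30.8, 27.0 and 29.6 to 47.9, 67.0 and 58.4 adjusted RPKM in mRNA-seq (1.28, adjusted p = 0.000415) and from 29.6, 26.4 and 44.5 to 99.4, 65.3 and 56.4 in Ribo-seq (1.21, adjusted p = 0.000167).

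In mRNA-seq the largest change was that of Mrps27, a pentatricopeptide repeat protein of the small subunit. It was at 2.15, 3.20 and 4.67 adjusted RPKM in control cells, 3.29, 5.05 and 6.93 in CPA1 and 9.96, 10.4 and 16.01 in CPA18, a change of 2.12 ± 0.46 (adjusted p = 8.03e-05). The control values rest on 1, 7 and 14 reads. In Ribo-seq, with 1, 1 and 9 reads in CPA18, its change of 1.03 ± 0.53 did not pass (adjusted p = 0.158). Mrps6, the counterpart of bacterial S6, rose in both assays, from 30.0, 39.4 and 41.1 to 46.3, 83.0 and 76.8 adjusted RPKM in mRNA-seq (1.23 ± 0.34, adjusted p = 0.00232) and from 28.6, 15.5 and 15.7 to 49.3, 26.9 and 57.8 in Ribo-seq (1.46 ± 0.43, adjusted p = 0.00476). Its Ribo-seq groups overlapped, and 16.005% of its 25-base runs are shared with other genes, mostly Slc5a3, so that its counts are uncertain.

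In both assays 24 of the 71 genes (33.8%) were called higher, against 16.1% of all genes, and 27 were called higher in neither. The 24 genes are 70.6% of either list of 34, and for all genes the shared calls were 59.4% of the mRNA-seq and 62.8% of the Ribo-seq list. Across the 71 genes the mRNA-seq and Ribo-seq changes correlated with Pearson r = 0.45 and Spearman rho = 0.49. This is a description across genes, which are not independent, and both assays came from the same experiments and share the scaling of each library over all its genes. From control to CPA1 the rank correlation of the changes of the same genes was -0.02.

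**Figure D3:**
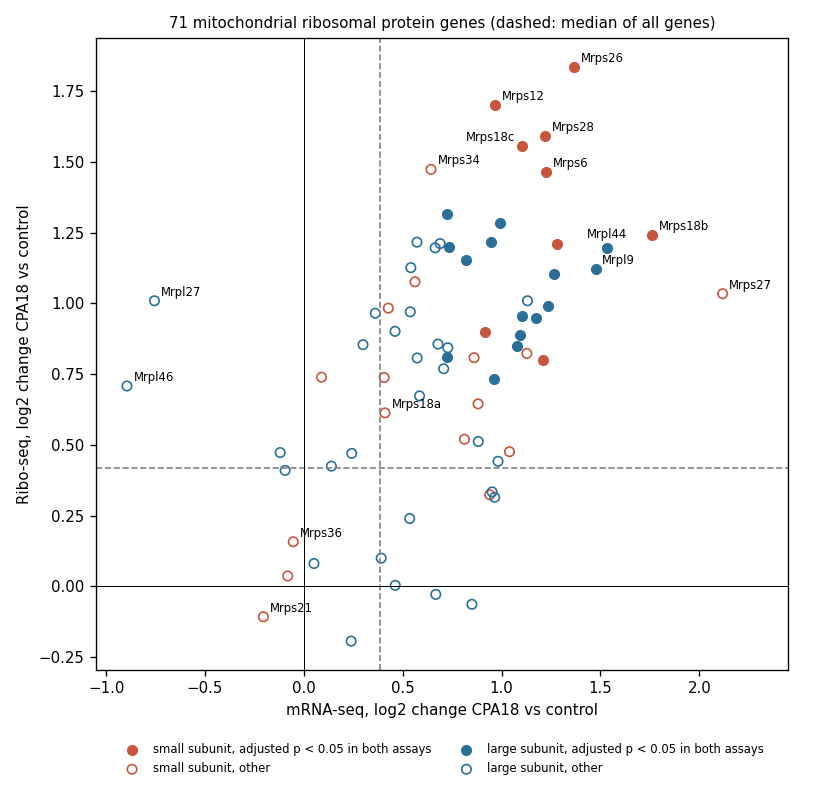
Log2 change from control to CPA18 in mRNA-seq (horizontal axis) and Ribo-seq (vertical axis) of the 71 genes, red for the small and blue for the large subunit. Filled points passed an adjusted p of 0.05 in both assays and dashed lines are the medians of all genes. All 24 genes called higher in both lie above both medians, Mrpl46 and Mrpl27 stand at the far left, and the correlation across genes is 0.45.

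A set of 3 members, Mrps18a, Mrps18b and Mrps18c, descends from the bacterial protein S18. Mrps18c takes the place of S18 in the small subunit, Mrps18b sits elsewhere in the small subunit, and Mrps18a was found in the large subunit. Mrps18b was at 26.9, 26.3 and 45.0 adjusted RPKM in control mRNA-seq libraries, 29.2, 45.2 and 51.9 in CPA1 and 63.6, 102.5 and 97.4 in CPA18, and rose by 1.76 ± 0.33 (adjusted p = 3.48e-06). In Ribo-seq it went from 39.4, 42.0 and 25.01 to 52.7, 88.5 and 61.2 (1.24 ± 0.34, adjusted p = 0.00218). Its control and CPA18 libraries did not overlap in either assay.

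Mrps18c was at 106, 114 and 80.8 adjusted RPKM in control mRNA-seq libraries and 154, 210.2 and 165 in CPA18 (1.10 ± 0.31, adjusted p = 0.00278). In Ribo-seq it was at 75.0, 90.9 and 36.6 in control cells, 122.5, 107 and 72.1 in CPA1 and 211, 183 and 118 in CPA18 (1.56 ± 0.32, adjusted p = 4.65e-05). Mrps18a did not pass in either assay. Its mRNA-seq level was 106, 189.9 and 203 in control cells and 128, 212 and 219 in CPA18 (0.41 ± 0.28, adjusted p = 0.245), and its Ribo-seq level 68.5, 53.7 and 90.4 in control cells, 116, 97.4 and 100.3 in CPA1 and 68.1, 92.6 and 118 in CPA18 (0.61 ± 0.29, adjusted p = 0.0986). The groups of Mrps18a overlapped in both assays, and the difference in change between the 3 paralogs was not tested. Their start regions are shown to set the paralogs side by side, from the same source and over the same window, at chr17:46110754-46111053 on the plus strand for Mrps18a, chr17:35916391-35916690 on the minus strand for Mrps18b and chr5:100798509-100798808 on the plus strand for Mrps18c. Capitals mark the ETS core in all 3, the letters AAGATGGCG recognised by YY1 in Mrps18a, and CGCATGCG, the core of the site of NRF1, in Mrps18b.
Mrps18a: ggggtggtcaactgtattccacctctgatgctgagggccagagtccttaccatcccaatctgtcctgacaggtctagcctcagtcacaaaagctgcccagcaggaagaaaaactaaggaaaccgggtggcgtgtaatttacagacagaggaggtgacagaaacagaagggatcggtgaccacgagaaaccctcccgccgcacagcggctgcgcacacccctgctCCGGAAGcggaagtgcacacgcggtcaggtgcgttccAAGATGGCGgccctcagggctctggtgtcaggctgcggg
Mrps18b: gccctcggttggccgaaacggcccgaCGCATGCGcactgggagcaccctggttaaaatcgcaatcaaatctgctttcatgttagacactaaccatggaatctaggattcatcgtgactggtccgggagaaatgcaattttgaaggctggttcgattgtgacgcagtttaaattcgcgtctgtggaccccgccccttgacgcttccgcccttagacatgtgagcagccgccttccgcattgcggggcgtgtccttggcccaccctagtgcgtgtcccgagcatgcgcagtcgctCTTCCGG
Mrps18c: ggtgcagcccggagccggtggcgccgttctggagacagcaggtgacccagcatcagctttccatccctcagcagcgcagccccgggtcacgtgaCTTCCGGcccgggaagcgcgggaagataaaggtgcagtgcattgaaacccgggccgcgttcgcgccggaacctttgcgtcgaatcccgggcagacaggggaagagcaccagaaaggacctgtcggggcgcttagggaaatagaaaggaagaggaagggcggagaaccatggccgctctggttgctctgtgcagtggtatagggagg

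**Figure D4:**
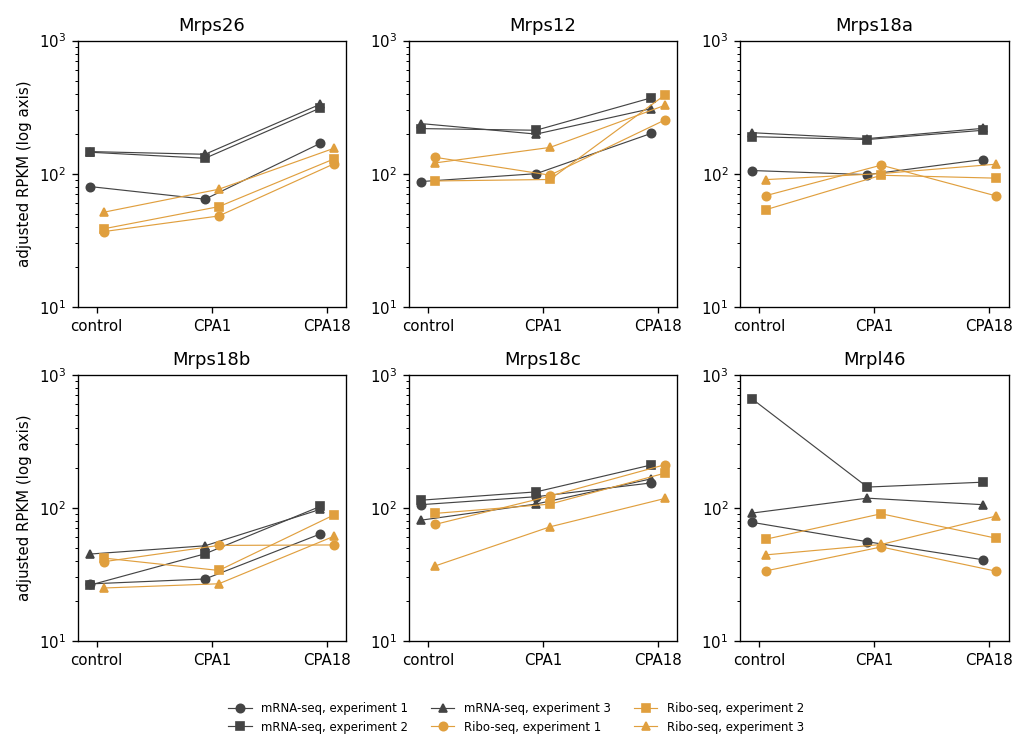
Adjusted RPKM on a log axis of Mrps26, Mrps12, Mrps18a, Mrps18b, Mrps18c and Mrpl46 in each library, mRNA-seq in grey and Ribo-seq in orange, with a marker shape for each experiment. The CPA18 libraries of Mrps26 lie above all others of the same assay, those of Mrps18a overlap the controls, and the control mRNA-seq library of experiment 2 stands apart for Mrpl46 at 657.7.

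Among large-subunit genes the highest changes from control to CPA18 were 1.53 in mRNA-seq and 1.32 in Ribo-seq, against 2.12 and 1.84 in the small subunit. Mrpl44, which has an RNase III-like fold, was at 8.37, 36.2 and 31.2 adjusted RPKM in control mRNA-seq libraries, 27.7, 26.2 and 37.5 in CPA1 and 54.3, 73.4 and 66.7 in CPA18 (1.53 ± 0.32, adjusted p = 3.6e-05). In Ribo-seq it was at 73.6, 47.9 and 45.3 in control cells, 23.5, 37.2 and 41.8 in CPA1 and 68.8, 176 and 95.4 in CPA18. It passed there (1.19 ± 0.27, adjusted p = 0.000224), although the groups overlapped and experiment 1 alone gave a change of -0.06. Mrpl9, the counterpart of bacterial L9, went from 24.8, 26.4 and 31.2 to 59.8, 73.7 and 56.6 in mRNA-seq (1.48 ± 0.32, adjusted p = 6.16e-05) and from 13.3, 10.2 and 14.1 to 16.3, 16.7 and 32.5 in Ribo-seq (1.12, adjusted p = 0.0286). Control and CPA18 libraries of Mrpl9 did not overlap in either assay.

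Mrpl20 and Mrpl52 were the large-subunit genes called in Ribo-seq under every scaling and with DESeq2. Mrpl20, the counterpart of bacterial L20, was at 119, 78.3 and 108 adjusted RPKM in control cells and 233, 218 and 219 in CPA18 (1.32 ± 0.22, adjusted p = 8.79e-07). Mrpl52 was at 180.5, 139 and 178.5 in control cells and 381, 414 and 306 in CPA18 (1.28 ± 0.27, adjusted p = 5.89e-05). For both, every CPA18 library was above every control library.

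Mrpl12 forms the stalk of the large subunit, the flexible arm to which translation factors bind, and Mrpl10 anchors it. Mrpl12 rose from 53.2, 42.4 and 53.3 to 131, 64.2 and 116 adjusted RPKM in Ribo-seq (1.20 ± 0.30, adjusted p = 0.000815) and from 83.6, 159 and 204 to 137, 241 and 243 in mRNA-seq (0.74 ± 0.27, adjusted p = 0.024). Mrpl10 did not pass in either assay, at 144, 134 and 130.0 in control and 131, 132 and 150.3 in CPA18 mRNA-seq libraries (0.24, adjusted p = 0.494) and 60.1, 65.3 and 70.5 against 86.0, 81.4 and 77.4 in Ribo-seq (0.47, adjusted p = 0.144). The difference between the stalk protein and its anchor was not tested.

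Some symbols do not match the place of the protein. Mrps30 was found in the large subunit in structures of the mammalian ribosome, and Mrps36 has been assigned to the α-ketoglutarate dehydrogenase complex. Mrps30 rose from 24.97, 37.8 and 46.9 to 59.0, 77.2 and 76.8 adjusted RPKM in mRNA-seq (1.21 ± 0.31, adjusted p = 0.000821) and from 41.1, 36.1 and 28.5 to 53.4, 77.2 and 36.5 in Ribo-seq (0.80 ± 0.30, adjusted p = 0.0323). Mrps36 was at 94.7, 102 and 89.9 in control and 61.9, 84.9 and 79.6 in CPA18 mRNA-seq libraries, lower in CPA18 in each experiment. Its mRNA-seq change on total counts, where the median gene moved by 0.38, was -0.05 ± 0.31 (adjusted p = 0.906). Its change in Ribo-seq was 0.16 (adjusted p = 0.727). Mrpl58, a peptidyl-tRNA hydrolase that frees stalled ribosomes and is also part of the large subunit, did not pass in mRNA-seq (13.7, 31.1 and 42.4 against 32.5, 40.04 and 35.8, a change of 0.73, adjusted p = 0.0707) or in Ribo-seq (0.84, adjusted p = 0.127).

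By subunit, 15 of 25 small-subunit and 19 of 46 large-subunit genes rose in mRNA-seq from control to CPA18, and 11 of 25 and 23 of 46 in Ribo-seq. The median member of the small subunit stood 0.53 above the median gene in mRNA-seq and that of the large subunit 0.32, with 0.47, 0.60 and 0.23 against 0.43, 0.40 and 0.19 in experiments 1 to 3. In Ribo-seq the order turned, at 0.40 and 0.43. Counting Mrps30 and Mrps18a with the large subunit and leaving out Mrps36 gave 0.55 and 0.32 in mRNA-seq and 0.52 and 0.43 in Ribo-seq. In mRNA-seq the small subunit was thus the higher in all 3 experiments, and the difference between the subunits was not tested. The summed RPKM of small-subunit over that of large-subunit genes was 0.551, 0.444 and 0.562 in the control mRNA-seq libraries of experiments 1 to 3 and 0.563, 0.574 and 0.579 in CPA18. It was higher in CPA18 in each experiment, most in experiment 2, whose control library holds the high Mrpl27 and Mrpl46 values described further on. In Ribo-seq the ratio was 0.631, 0.624 and 0.553 in control cells and 0.631, 0.659 and 0.636 in CPA18, equal in experiment 1 and higher in the other two.

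After 1 h of CPA few members passed. In mRNA-seq 1 of 71, Mrpl46, was lower, against 0.433% of all genes called lower, and 3 had an unadjusted p under 0.05. In Ribo-seq 0 of 71 passed edgeR's test, against 6.67% of all genes called in either direction. 10 had an unadjusted p under 0.05, of which 3 were positive, and DESeq2 called 0, limma 1 (Mrpl23) and TMM scaling 1 (Mrpl28). The lowest adjusted p, 0.0761, was that of Mrpl28, with a change of -0.64 ± 0.23. The median member stood 0.15 below the median gene in Ribo-seq, with -0.28, -0.24 and 0.05 in experiments 1 to 3, which is within the spread between the experiments (SD 0.18).

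Between CPA1 and CPA18, 49 of 71 genes rose in mRNA-seq and none fell, against 33.8% of all genes called higher, and 33 rose in Ribo-seq and none fell, against 18.2%. On totals without Ins1, Ins2 and Lars2, 30 and 20 rose, against 17.6 and 12.1% of all genes. In both assays 31 of the 71 (43.7%) were called higher, against 14.8% of all genes. These are 63.3% of the mRNA-seq list and 93.9% of the Ribo-seq list, where for all genes the shared calls were 43.8 and 81.4% of the lists. This comparison uses the same CPA18 libraries as the one with control cells. The median member stood 0.46 above the median gene in mRNA-seq (0.50, 0.64 and 0.22 in the 3 experiments) and 0.57 above it in Ribo-seq (0.54, 0.76 and 0.34). In mRNA-seq the largest changes were those of Mrps26 (1.72 ± 0.27, adjusted p = 2.19e-08), Mrps27 (1.65 ± 0.43, adjusted p = 0.000861), Mrps6 (1.60 ± 0.34, adjusted p = 3.98e-05) and Mrps18b (1.51 ± 0.31, adjusted p = 2.55e-05), all of the small subunit. In Ribo-seq Mrps28 rose by 1.74 ± 0.27 (adjusted p = 5.34e-08) and Mrps12 by 1.70 ± 0.25 (adjusted p = 2.42e-08). Mrpl44 showed the largest Ribo-seq change, 1.90 ± 0.31 (adjusted p = 2.33e-07), from the CPA1 and CPA18 values given above. Mrpl23, the counterpart of bacterial L23, followed with 44.7, 58.2 and 44.9 adjusted RPKM in control cells, 31.6, 27.5 and 11.9 in CPA1 and 96.1, 86.3 and 55.8 in CPA18 (1.86 ± 0.46, adjusted p = 0.000822). Its CPA1 values rest on 9, 6 and 3 reads, and against control its CPA18 change of 0.81 did not pass (adjusted p = 0.0789).

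On total counts Mrpl46 was the single member called lower, and that call rests on 1 library. Its mRNA-seq level was 77.9, 657.7 and 91.4 adjusted RPKM in control cells, from 23, 912 and 174 reads, 55.7, 143 and 118 in CPA1 and 40.8, 156 and 106 in CPA18. The control library of experiment 2 stood apart from the other 8. The change was -1.12 ± 0.30 in CPA1 (adjusted p = 0.0277) and -0.90 ± 0.29 in CPA18 (adjusted p = 0.00927), and without that library it was -0.17 (adjusted p = 1.0) and 0.16 (adjusted p = 0.801). In Ribo-seq Mrpl46 was at 33.7, 58.2 and 44.4 in control cells and 33.4, 59.1 and 86.9 in CPA18 (0.71, adjusted p = 0.066).

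Mrpl27 showed the same library apart, at 52.8, 572 and 70.7 adjusted RPKM in control mRNA-seq libraries, 64.2, 109.6 and 101 in CPA1 and 55.6, 132 and 79.7 in CPA18 (-0.76, adjusted p = 0.0508 from control to CPA18). The control library of experiment 2 lay 3.19 (Mrpl27) and 2.95 (Mrpl46) log2 units above the other control libraries, where the median was -0.21 for all genes and 0.13 for the members, and where Mrpl44 came next at 1.06. Of all genes, 16 lay higher than Mrpl27 and 27 higher than Mrpl46. In Ribo-seq Mrpl27 rose from 34.8, 36.3 and 38.3 to 55.2, 70.9 and 72.4 (1.01, adjusted p = 0.0235). No 25-base run of Mrpl46 is shared with another gene, while 12.04% of those of Mrpl27 are.

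Mrps11, the counterpart of bacterial S11, starts next to Mrpl46 on the opposite strand: Mrpl46 lies at chr7:78775341-78783089 and Mrps11 at chr7:78783131-78792988. Mrps11 did not share the high value, at 68.4, 51.8 and 60.1 adjusted RPKM in control mRNA-seq libraries and 51.1, 66.7 and 73.7 in CPA18 (0.41, adjusted p = 0.315). The window around the start of Mrps11 is shown because it also holds the start of Mrpl46. It lies at chr7:78782881-78783180 on the plus strand, and capitals mark CGCCATCTT, the reverse complement of the YY1 letters.
Mrps11: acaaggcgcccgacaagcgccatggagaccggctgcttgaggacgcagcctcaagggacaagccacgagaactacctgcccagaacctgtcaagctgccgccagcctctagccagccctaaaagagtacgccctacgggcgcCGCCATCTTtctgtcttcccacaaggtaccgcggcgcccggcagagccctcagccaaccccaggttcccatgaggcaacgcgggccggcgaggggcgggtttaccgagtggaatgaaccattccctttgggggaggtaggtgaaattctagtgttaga

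Ribosome occupancy (ribo ocp), the Ribo-seq relative to the mRNA-seq level of a gene, was tested as the difference between the changes in the 2 assays. None of the 71 genes passed in CPA1 against control, in CPA18 against control or in CPA18 against CPA1 (edgeR's quasi-likelihood test), against 0.0866, 0.476 and 0.0722% of all genes. Limma called 0 as well, and so did DESeq2 in CPA1 and CPA18 against control. In CPA18 against CPA1 DESeq2 gave no member an adjusted p, so it could call none there. In edgeR's test 5, 5 and 1 genes had an unadjusted p under 0.05. From control to CPA18 they were Mrpl27 (1.79 ± 0.56, adjusted p = 0.163), Mrpl46 (1.59 ± 0.49, adjusted p = 0.163), Mrps34 (0.83 ± 0.36, adjusted p = 0.469), Mrps12 (0.74 ± 0.35, adjusted p = 0.512) and Mrpl37 (-0.95, adjusted p = 0.506). The first pair carries the control mRNA-seq library described above, without which the occupancy changes were 0.39 for Mrpl27 and 0.48 for Mrpl46. Standard errors ranged from 0.333 to 0.763 over the 71 genes, beside the changes of 0.74 for Mrps12 and 0.83 for Mrps34. In control cells the log2 occupancy of the median member stood 0.14 above that of the median gene in experiment 1 and at -0.44 and -0.69 relative to it in experiments 2 and 3. The median member differed in change from the median gene by -0.07, 0.05 and 0.06 in the 3 comparisons.

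In control cells the members were expressed well above the typical gene, with a median of 36.4, 54.7 and 55.4 adjusted RPKM in mRNA-seq against 18.0, 13.2 and 13.4 for all genes tested, and of 36.8, 38.6 and 38.9 against 14.1, 13.8 and 14.4 in Ribo-seq. They also spread widely, with an SD of 1.51 to 1.86 log2 units among members of a control library. The highest means in control mRNA-seq were those of Mrps21, Mrpl46 and Mrpl28, and the lowest those of Mrps27, Mrpl48 and Mrpl1. The place of Mrpl46 rests on the control library of experiment 2 (657.7 adjusted RPKM, against 77.9 and 91.4 in the others). Mrps21, the counterpart of bacterial S21, was at 209, 409 and 377 adjusted RPKM in control cells, 162, 369 and 321 in CPA1 and 149, 293 and 287 in CPA18. It did not pass with total counts (-0.21 ± 0.28, adjusted p = 0.595) but was lower on totals without Ins1, Ins2 and Lars2 (-0.44, adjusted p = 0.049), with TMM factors (-0.57, adjusted p = 0.0162) and in DESeq2 (-0.61, adjusted p = 0.0203). In Ribo-seq its levels overlapped, at 240.5, 347 and 271 in control cells and 211, 182.5 and 278.5 in CPA18.

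Mrpl28, the counterpart of bacterial L28, was at 136, 249 and 340.1 adjusted RPKM in control mRNA-seq libraries and 152, 220.1 and 254 in CPA18 (0.05, adjusted p = 0.893). At the low end, Mrpl48 was at 1.85, 2.37 and 3.02 in control and 1.29, 4.27 and 4.75 in CPA18 (0.98, adjusted p = 0.0715), and Mrpl1 at 3.45, 1.23 and 0.715 and 8.54, 1.97 and 1.25 (1.13, adjusted p = 0.0926). Neither low gene passed, and their groups overlapped. Across the 71 genes the mRNA-seq change from control to CPA18 correlated with the control level at r = -0.36 and rho = -0.3, a description in which both terms hold the same control libraries. The members' transcripts were shorter than those of all genes tested, with a median of 1134 against 2850 bases, and had a median GC content of 51.53% against 50.93%. Counts are uncertain where a transcript shares sequence with other genes, and the share of such 25-base runs was largest for Mrps25 (58.2%, mostly with Nr2c2), Mrpl43 (34.4%, mostly with Twnk), Mrpl24 (33.6%, mostly with Rrnad1) and Mrpl19 (25.3%, mostly with Gcfc2).

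The 7 members without reads in all 18 libraries were not tested, and their adjusted RPKM are given as values. Mrpl22, Mrpl39, Mrps31 and Mrps35 had reads in 17 libraries. In Ribo-seq Mrpl22 was at 10.2, 23.9 and 9.13 in control and 43.9, 14.3 and 43.0 in CPA18, and Mrpl39 at 1.64, 6.64 and 7.95 and 7.06, 20.2 and 9.72. Mrps31 was at 7.91, 7.11 and 5.16 and 17.01, 13.9 and 9.11, and Mrps35 at 9.96, 5.12 and 7.42 and 12.3, 10.0 and 11.2. For Mrps31 and Mrps35 every CPA18 library was above every control library, while Mrpl22 and Mrpl39 overlapped. The CPA18 values rest on 4, 4 and 7 reads for Mrps31 and on 2, 2 and 6 for Mrps35. The control values rest on 8, 8 and 7 and on 7, 4 and 7 reads, so the separation depends on few reads and the depth of the libraries. Mrpl55, Mrps10 and Mrps24 had reads in all libraries only when their transcripts were summed. Mrpl55 was at 10.9, 12.7 and 15.0 in control and 33.9, 16.1 and 24.3 in CPA18 Ribo-seq libraries and Mrps10 at 25.8, 15.4 and 10.8 and 50.0, 46.5 and 39.98. Their CPA18 values rest on 5, 3 and 12 and on 8, 9 and 21 reads. Mrps24 went the other way, at 56.1, 38.2 and 63.5 in control and 6.47, 10.8 and 37.9 in CPA18, the last from 1, 2 and 19 reads.

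The start regions of the members were searched for 5 motifs on both strands, over 300 bases in RefSeq on GRCm38.p6, which held 63 of the 71 genes. The ETS core CCGGAAG stood in 25 of them (39.7%), against 23.6% of the 5590 tested genes with such a region and 8.86% of all 32851 regions. For each motif, members and tested genes counted once if any of their regions matched. The 32851 regions were counted singly, so their share has another unit. The YY1 letters AAGATGGCG stood in 7 (11.1%, against 4.65 and 1.4%) and the NRF1 core CGCATGCG in 5 (7.94%, against 5.37 and 1.87%). The cyclic AMP response element TGACGTCA stood in 2 (3.17%, against 4.33 and 1.79%), and the core of the ATF4 and C/EBP composite site, TGATGNAA, in none (against 2.34 and 3.97%). ETS factors include GABP, which with NRF1 and YY1 is known for acting on nuclear genes of mitochondrial proteins. Genes with and without the ETS core had a median change relative to the median gene of 0.50 and 0.30 in mRNA-seq and 0.53 and 0.39 in Ribo-seq from control to CPA18. For the NRF1 core these medians were 0.85 and 0.33, and 0.70 and 0.39. The YY1 letters went the other way, with 0.03 and 0.34 in mRNA-seq and 0.32 and 0.41 in Ribo-seq, and the cyclic AMP response element differed between the assays, with 0.43 and 0.34, and 0.15 and 0.40. A match of letters is a description and no evidence of binding.

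Other genes of the mitochondrial translation system were taken from lists by function, with the condition of reads in all 18 libraries, and compared from control to CPA18. Of 24 assembly factors 15 were tested, and 8 rose in mRNA-seq and 9 in Ribo-seq with none lower, where 27.0 and 25.6% of all genes were called higher. On totals without Ins1, Ins2 and Lars2, 5 and 7 rose, where 21.2 and 17.5% of all genes did. Their median stood 0.68 and 0.91 above the median gene. Mettl17, which acts in assembly of the small subunit, rose by 2.36 ± 0.37 in mRNA-seq (adjusted p = 2.73e-08) and 1.73 in Ribo-seq (adjusted p = 0.000171). Mrm1, which methylates the large ribosomal RNA, rose by 2.26 (adjusted p = 4.38e-09) and 1.99 (adjusted p = 3.66e-05), and Ngrn, of the module that binds that RNA, by 2.16 (adjusted p = 2.86e-08) and 1.76 (adjusted p = 4.44e-05). Ddx28, a helicase of large-subunit assembly, rose by 1.70 (adjusted p = 7.21e-06) and 1.32 (adjusted p = 0.000176). The difference between assembly factors and ribosomal proteins was not tested.

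Of 5 ribosomal proteins without the Mrp prefix 4 were tested and 2 rose in each assay, or 2 and 1 on totals without Ins1, Ins2 and Lars2. Among all genes 27.0 and 25.6% were called higher, or 21.2 and 17.5% on those totals. Chchd1, of the small subunit, rose in both (0.84, adjusted p = 0.0159, and 1.20, adjusted p = 0.000247) and the GTP-binding small-subunit protein Dap3 in mRNA-seq (1.23, adjusted p = 0.00514). Of 17 translation factors 11 were tested, and 3 rose and 1 was lower in mRNA-seq, with 1 and 1 in Ribo-seq, which is near or below the share among all genes. On totals without Ins1, Ins2 and Lars2, 1 rose and 1 was lower in mRNA-seq, and 0 and 1 in Ribo-seq. The elongation factor Tsfm rose (1.00, adjusted p = 0.00668, and 0.87, adjusted p = 0.0173), and Lrpprc, which stabilises mitochondrial mRNAs, was lower in both assays (-0.94, adjusted p = 0.0109, and -0.64, adjusted p = 0.0108). Of 20 mitochondrial aminoacyl-tRNA synthetases 12 were tested and 5 rose in each assay, against 27.0 and 25.6% of all genes. On totals without Ins1, Ins2 and Lars2, 3 and 5 rose, against 21.2 and 17.5%. Among them Yars2 rose by 1.49 and 1.93 and Ears2 by 1.67 and 1.75 on total counts. Lars2 itself did not pass in mRNA-seq (-0.64) and was called higher in Ribo-seq (2.81, adjusted p = 4.47e-29). Its share of the reads varied widely, from 4.75 to 54.8% in mRNA-seq libraries and from 0.083 to 3.51% in Ribo-seq libraries. Its counts are therefore uncertain as a measure of expression, and the source of these reads was not tested.

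Of 11 genes of mitochondrial transcription and DNA maintenance 4 were tested, and 1 rose in mRNA-seq (Twnk, the replicative helicase, 1.05) and 2 in Ribo-seq (Polg, the DNA polymerase, and Ssbp1, which binds single strands). Among all genes 27.0 and 25.6% were called higher, and counts in a list of 4 say little beside these shares. Of 10 regulators of mitochondrial biogenesis 4 were tested, with 0 in mRNA-seq and 2 in Ribo-seq, Myc (3.67, adjusted p = 2.21e-07) and the ETS factor Gabpa (2.31, adjusted p = 0.0227). Set beside these, 57 of 78 cytosolic ribosomal protein genes rose in mRNA-seq and 67 in Ribo-seq, with a median 0.33 and 0.41 above the median gene (65 and 58 rose on totals without Ins1, Ins2 and Lars2). Of 78 nuclear-encoded subunits of the respiratory chain and ATP synthase, taken as 1 list, 15 and 21 rose and 1 and 2 were lower, with a median 0.06 and 0.10 below the median gene. The share of them that rose was below the 27.0% of all genes in mRNA-seq and near the 25.6% in Ribo-seq. Of all 6929 genes, 547 and 433 were lower. On totals without Ins1, Ins2 and Lars2 the counts for the list of respiratory chain and ATP synthase subunits were 13 higher and 15 lower in mRNA-seq and 12 higher and 7 lower in Ribo-seq. Of all 6929 genes, 1467 were higher and 862 lower in mRNA-seq on those totals, and 1213 and 594 in Ribo-seq. The differences between lists were not tested.

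**Figure D5:**
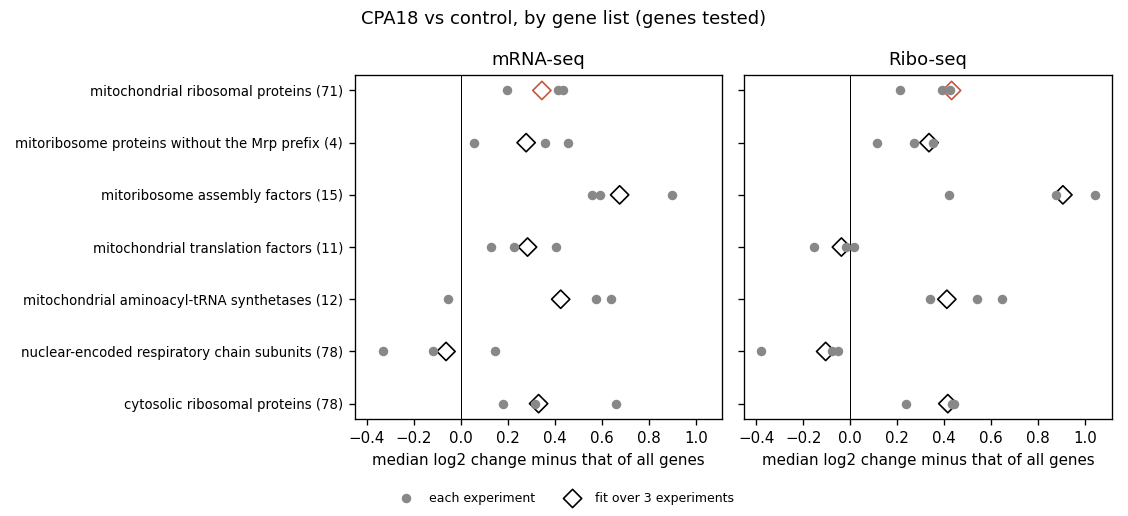
Median log2 change from control to CPA18 minus the median of all genes, for 7 gene lists in mRNA-seq and Ribo-seq panels. Grey dots are the 3 experiments and open diamonds the fit over all 3. The mitochondrial ribosomal proteins (0.35 and 0.43) and the cytosolic ones (0.33 and 0.41) lie above 0 and the respiratory chain subunits (-0.06 and -0.10) near it. The last list also holds subunits of ATP synthase.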

How the data were processed

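MIN6 cells were profiled by mRNA-seq and Ribo-seq under 3 treatments in 3 experiments (18 libraries). Libraries were placed by title. The descriptions of the control libraries of experiment 2 name the other assay, while the titles match the table headers. Per the study's methods, the authors removed low-quality reads, kept short fragments and mapped what remained to mouse RNA sequences (GRCm38) using Bowtie2, both also named in the submitters' processing notes. Lysates were digested with RNase If for Ribo-seq and poly(A) RNA was broken by alkali for mRNA-seq.

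The deposited tables give, per RefSeq transcript, the raw read count, and RPKM computed by the authors per total of aligned reads. The RPM columns were not used. RPKM recomputed from the counts and lengths differed from the deposited values by at most 0.00111 log2 units. Of 30741 transcripts, 30227 were matched to a gene by accession and version, 478 without the version and 36 not at all, which were left out. Transcripts with reads in all 18 libraries (10163) were summed to 6929 genes. Adjusted RPKM is the deposited RPKM multiplied by the total count over the total without Ins1, Ins2 and Lars2.

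Counts were tested with edgeR 4.0.16 (R 4.3.3; quasi-likelihood test, total count as library size, experiment as block), with ribosome occupancy as the interaction of assay and treatment, and adjusted by Benjamini-Hochberg over all 6929 genes with a threshold of 0.05. The replicate number pairs libraries because the labels name it a batch, and the deviations of libraries of the same number from their group means correlated at 0.104 to 0.737 in mRNA-seq and 0.083 to 0.198 in Ribo-seq. P-values measure the spread between 3 experiments of 1 cell line, and PCR copies could not be told from separate molecules. Alternatives were TMM factors, totals without Ins1, Ins2 and Lars2, DESeq2 1.42.0, limma 3.58.1 on log2(RPKM + 0.5), other filters on reads, the transcript with most reads per gene, no block, an offset for GC content and length, and libraries left out. Runs of 25 bases shared between genes were counted on the RefSeq transcripts. The code was tested on simulated counts. Python 3.11.15, pandas 2.3.3, numpy 2.4.6 and scipy 1.17.1 were used.

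Genes were named by rule: in each comparison up to 4 members with the largest increase and 4 with the largest decrease that passed with 1 sign in all experiments, the 3 highest and 3 lowest in control mRNA-seq, Mrpl12, Mrps6, Mrps12, Mrps18a, Mrps18b, Mrps18c, Mrps30, Mrps36 and Mrpl58, and all members not tested. Mrpl9, Mrpl10, Mrpl20, Mrpl27, Mrpl37, Mrpl52, Mrps11, Mrps14, Mrps33 and Mrps34 outside that rule, and the genes of the other lists, were chosen after their values were seen. The members and lists were chosen with earlier results of these data known.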

Additional observations from a re-analysis of the deposited data

How the results depend on the processing

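The number of genes called moved with the scaling, the tool and the libraries used. Among all genes, CPA18 against control gave 1874 higher and 547 lower calls in mRNA-seq and 1772 and 433 in Ribo-seq with total counts, but 1129 and 1110, and 824 and 848, with TMM factors. CPA18 against CPA1 gave 2343 and 400, and 1262 and 375, against 1058 and 1092, and 607 and 714. For mRNA-seq of CPA18 against control, 35 members were called with total counts, 22 with TMM factors, 14 with DESeq2 and 11 to 40 with a library or experiment left out (11 without experiment 3, 19 without experiment 2, 19 without the control mRNA-seq library of experiment 2). For mRNA-seq of CPA18 against CPA1 the 49 calls, all higher, became 23 with TMM factors, 30 without Ins1, Ins2 and Lars2, 17 with DESeq2 and 19 to 47 with libraries left out (19 without experiment 2). The 23 calls with TMM factors were 22 higher and 1 lower, Mrps33. For Ribo-seq of CPA18 against control the 34 calls became 18, 22 and 8 under the same 3 settings and 23 to 34 with libraries left out. For Ribo-seq of CPA18 against CPA1 the 33 calls became 14, 20 and 12, 21 with the offset for GC content and length, and 17 to 33 with libraries left out (17 without experiment 2). The 1 call in mRNA-seq of CPA1 against control became 0 with TMM factors, without Ins1, Ins2 and Lars2, with DESeq2, with limma, with the transcript of most reads, with the offset and without the block, and 0 to 2 with libraries left out. In Ribo-seq of CPA1 TMM factors and limma each gave 1 call in place of 0. For ribosome occupancy, no filter on reads gave 1 call in CPA1 and 2 in CPA18 against control, and leaving out libraries 0 to 1 in each (Mrpl46 or Mrpl27). Without the replicate block the mRNA-seq calls of CPA18 fell to 0 against control and 0 against CPA1, while those of Ribo-seq were 30 and 26. Without the block and without Ins1, Ins2 and Lars2, a setting chosen after seeing the data, they were 3, 0, 20 and 16 in the same order, and 0 in mRNA-seq of CPA1. For DESeq2, limma, the offset, no block and libraries left out, the share of all genes called is not given here. The members' counts there cannot be set against it. The median of the members minus that of all genes, 0.35, 0.43 and 0.57 in mRNA-seq of CPA18 and in Ribo-seq of CPA18 against control and CPA1, was 0.54, 0.74 and 0.89 with no filter on reads, and the last was 0.36 with the offset. For occupancy of CPA18 against CPA1 it was 0.05 to 0.16 with libraries left out. Mrpl46 in mRNA-seq turned to 0.06 in CPA1 and 0.04 in CPA18 without experiment 2, and to 0.16 in CPA18 without the control library, and reached -1.90 and -1.54 without experiment 3. Of the comparisons of counts and medians with an alternative, 205 stayed within 1.5 times the count or within the spread between experiments, and 47 moved beyond that. Of the further comparisons outside these counts and medians, 341 stayed the same, 29 became weaker, 12 moved and 3 reversed. The cause of these differences was not tested.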
